A study of Mus musculus with 15 samples.

Results

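Voltage-gated sodium and calcium channels were measured as RNA in 15 mouse cerebellar libraries through the 40 genes whose symbol begins with Cacn, or with Scn and a digit. They are 40 of the 21889 genes of the deposited gene count tables. Of them 10 encode calcium channel alpha1 subunits, 4 alpha2delta, 4 beta and 8 gamma subunits, and 10 encode sodium channel alpha and 4 sodium channel beta subunits. The members were taken by name and not by any measured value, and 36 had enough reads to be tested. The granule neuron precursor (GNP) is the dividing cell that gives rise to cerebellar granule neurons, and RNA from GNPs was sequenced at embryonic day E15.5 under the genotype label Math1-GFP and, under the genotype label WT, at postnatal days P1, P7 and P14, 3 libraries per age. The last 3 libraries came from cells of a cerebellar tumour, medulloblastoma (MB). Their genotype is labelled Ptch1 heterozygous, and their age is not given. Cells of all 5 groups had been enriched on Percoll, a density step that does not sort by cell type, and poly(A) RNA was read. E15.5 was the only age with the Math1-GFP label, so age and genotype cannot be told apart there. The labels do not say whether the libraries of a group came from separate animals or pools, so a p-value measures only the spread between these libraries. The question the design sets is which genes change as GNPs differentiate, and how the tumour compares with precursors.

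The alpha subunit of a sodium channel and the alpha1 subunit of a calcium channel each form the pore and sense the membrane voltage. Sodium channels carry the upstroke of the action potential, while calcium channels turn depolarisation into calcium entry, for transmitter release at presynaptic sites (P/Q-type and N-type), for gene regulation at the cell body (L-type), or for firing near rest (T-type). Beta and alpha2delta subunits bring calcium channels to the membrane, sodium channel beta subunits set gating and adhesion, and many of the gamma subunits are known mainly as partners of AMPA-type glutamate receptors (TARPs). Granule neurons depend on these channels to fire and to release glutamate onto Purkinje cells.

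Between 12597472 and 43443132 reads per library were counted in genes, and the members took 0.143% to 0.321% of them. Levels are in CPM, the count of a gene scaled to library size after TMM normalisation, and a level depends on gene length, so that genes were compared with each other only as CPM per kilobase of exon. Levels come from bulk RNA, in which fewer cells of a type and less RNA per cell cannot be told apart. Among granule lineage markers, Atoh1, which marks precursors, was at 124 to 138 CPM at E15.5, 10.9 to 13.1 at P14 and 236 to 322 in MB, and Gabra6, a receptor subunit of mature granule neurons, was at 0 at E15.5, 161 to 202 at P14 and 0.2198 to 1.11 in MB. All 10 markers of this lineage summed to 3015 to 4436 CPM at E15.5, 7162 to 7324 at P7, 6790 to 7857 at P14 and 3619 to 5230 in MB. By exon length or by the first principal component, 2 of the 15 libraries stood apart from their group. In E15.5 replicate 3 the genes with at least 7000 bases of exon sat low (median log2 difference of -0.71 from the other E15.5 libraries, against -0.303 to 0.497 in the other 14 libraries), and 17 members have exons that long. P1 replicate 3 lay near P14 on the first principal component (46.8, against 3.48 and 26.8 in the other P1 libraries and 58.4 to 63.7 at P14), and its 9 oligodendrocyte lineage markers summed to 3818 CPM, against 564 and 958 in the other P1 libraries. Its granule lineage markers summed to 5884 CPM, against 4038 and 3580, and its markers of dividing cells to 1605, against 2409 and 2182. Results that rest on either library are given with and without it. The 3 choroid plexus markers also spread widely within groups: they summed to 293, 10238 and 3828 CPM at P1 and to 12.1, 465 and 1946 at P7, so that P1 replicate 2 was the highest and P7 replicate 1 the lowest of all libraries.

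Between E15.5 and P14, 16 members rose and 10 fell, of 36 tested, at a false discovery rate under 0.05. Over all 15259 genes tested, 26.7% were called higher and 24.2% lower, and the median log2 fold change was 0.84 over the members and -0.03 over all genes. Without E15.5 replicate 3 the members called were 12 higher and 10 lower. Any difference among the 4 ages was called for 30 members (26 without E15.5 replicate 3, 31 without P1 replicate 3), beside 55.7% of all genes tested. Of the 3 intervals between ages the first held the most calls: from E15.5 to P1, 6 members rose and 10 fell (background 25.4% and 20.9%), and 4 rose and 10 fell without E15.5 replicate 3. Without P1 replicate 3, 4 rose and 12 fell (background 22.5% and 17.6% in that fit), with Cacna1g (-1.34, adjusted p = 0.0143) and Cacna1i (-1.41, adjusted p = 0.0144) called lower there and not with all libraries. From P1 to P7, 2 rose and 1 fell (background 1.4% and 1.74%), and from P7 to P14, 5 rose and 2 fell (background 5.81% and 4.51%). With 1 library left out at a time, these intervals gave 0 to 3 higher and 0 to 2 lower each. Between P1 and P14, 4 rose and 4 fell (background 3.63% and 5.31%), but without P1 replicate 3 the counts were 15 and 4 (background 9.54% and 7.96% in that fit), and without P1 replicate 2 they were 0 (7 at an unadjusted p under 0.05, edgeR) and 3. In the fit without P1 replicate 3, 11 members were called higher that edgeR did not call with all libraries. They were Cacna1a, Cacna1c, Cacna1d, Cacna1e, Cacna1g, Cacna1i, Cacnb4, Scn1a, Scn2a, Scn2b and Scn11a, with log2 fold changes from 1.09 (Scn1a) to 3.04 (Scn11a). Some alternatives that kept P1 replicate 3 also called more than 4 members higher, as given at the end. Against P7 precursors, 5 members were higher and 13 lower in MB (background 13.7% and 20.7%), and against P14 the counts were 4 and 17 (background 22.9% and 27.2%). The median log2 fold change of the members in MB was -0.70 against P7 and -0.88 against P14, beside 0.02 and 0.01 over all genes. The gene tables of 6 libraries counted some genes in another way than those of the other 9. Of 30 members with a value to compare, 0 separated these sets of libraries, and the largest difference was 0.195 on the log2 scale. Within 1 set, P14 could be compared with 1 E15.5 library, which left 5 members higher, and MB with P7 through MB replicate 1 alone, which left 2 higher.

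Markers of other cell types moved in the same comparisons. Between E15.5 and P14, 7 of 7 astroglial, 9 of 9 oligodendrocyte lineage, 7 of 7 endothelial and mural, 6 of 7 microglial and 3 of 3 choroid plexus markers were called higher, 3 of 8 Purkinje cell markers were called higher and 7 of 7 markers of GABAergic interneurons were called lower. The oligodendrocyte lineage markers summed to 64.8 to 88.1 CPM at E15.5 and 5881 to 6294 at P14, and the astroglial markers to 126 to 371 and 3500.1 to 4467. The GABAergic markers summed to 575 to 728 CPM at E15.5 and 154 to 228 at P14, with none at 0 in either group. In MB against P7, 7 of 8 Purkinje cell, 7 of 7 GABAergic, 7 of 7 endothelial and mural, 5 of 7 astroglial and 6 of 9 oligodendrocyte lineage markers were called lower, while 4 of 7 markers of microglia and macrophages and 1 of 9 of the oligodendrocyte lineage were called higher. The microglia and macrophage markers summed to 41.3 to 131 CPM at P7 and 130.1 to 387 in MB. The Purkinje cell markers summed to 389 to 1019.5 CPM at P7 and 32.8 to 47.7 in MB, where Calb1 was at 0.159 to 0.244 and Pcp2 at 0.119 to 0.680 CPM. Granule lineage markers moved as well. Of these 10, 6 were called higher and 1 lower between E15.5 and P14. In MB against P7, 2 of them were called higher and 4 lower. The part of any of these cell types in the channel results was not tested.

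**Figure D1:**
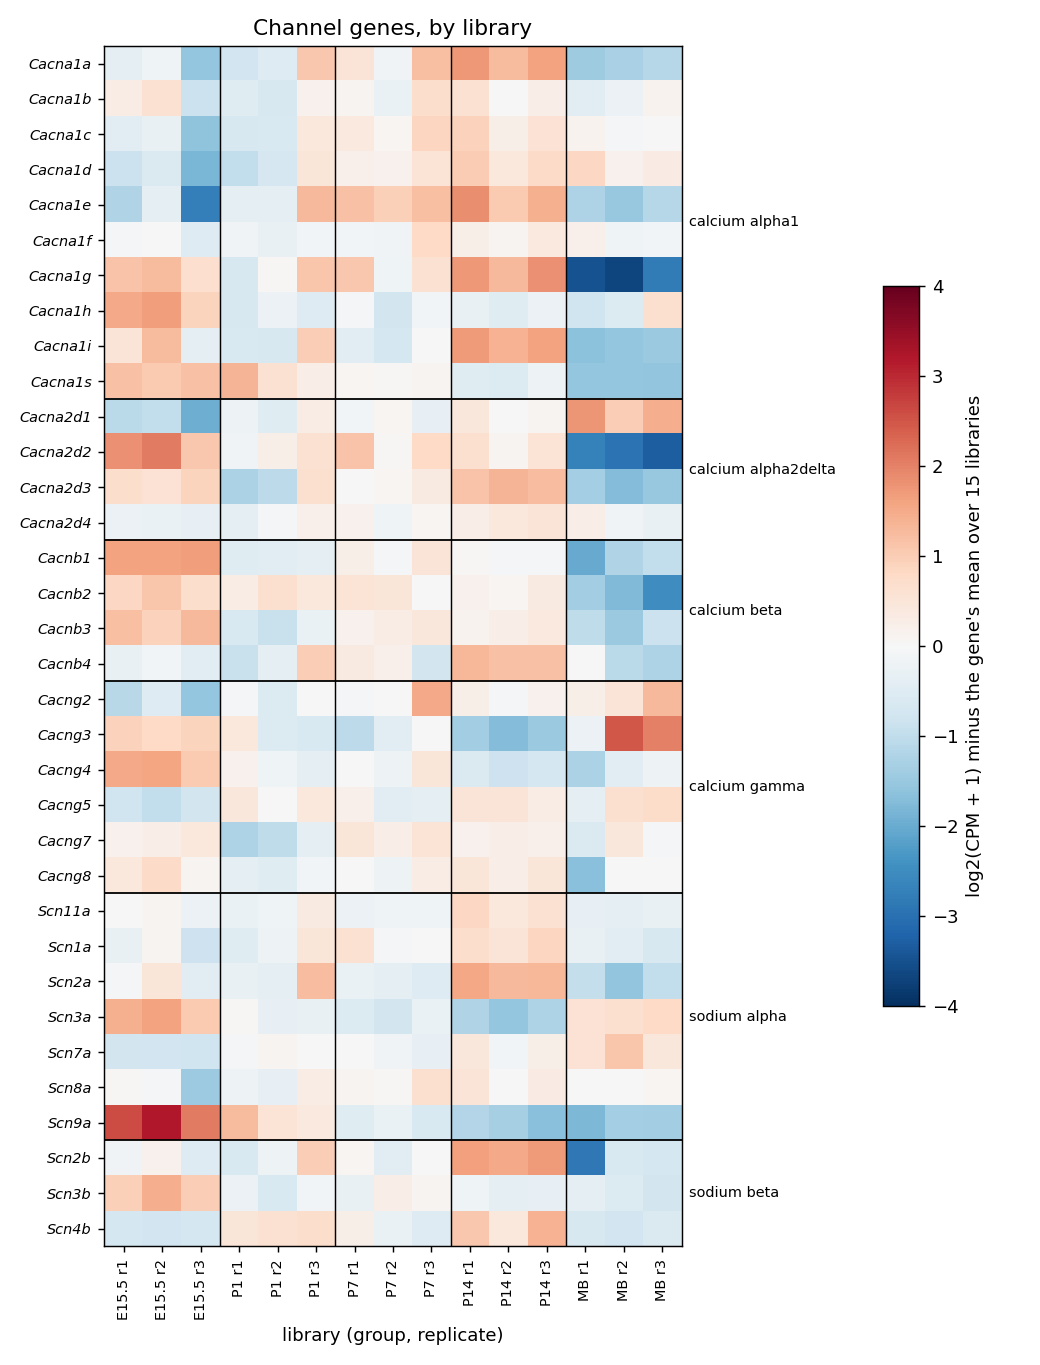
Log2(CPM + 1) of tested members in each of the 15 libraries, minus each gene's mean over the libraries, with members in rows by subunit family and libraries in columns by group (colour from -4 to 4). Blocks of members are highest in the 3 E15.5 libraries (such as Cacnb1, Cacnb3, Scn3a and Scn3b) or in the 3 P14 libraries (such as Scn2a and Scn2b), and the MB columns hold the lowest values of many calcium channel genes, Cacna1g and Cacna2d2 among them.

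Of the pore-forming calcium channel genes, 4 of 10 rose and 2 fell between E15.5 and P14 (background 26.7% and 24.2%). In MB against P7, 0 of 10 were higher and 5 lower by edgeR (background 13.7% and 20.7%; 0 higher also at an unadjusted p under 0.05). Cacna1a encodes the P/Q-type pore, the main route of calcium entry for transmitter release at granule neuron terminals. Its level was 83.7, 97.0 and 36.8 CPM in the E15.5 libraries, 64.2, 75.9 and 231 at P1, 159, 99.1 and 254 at P7 and 371, 264 and 339.7 at P14. Cacna1a in MB was at 40.5, 44.6 and 49.3 CPM. All 3 P14 libraries lay above every library of the other groups, and the MB libraries lay below all those of P1, P7 and P14 but within the E15.5 range. Mean CPM was 4.48-fold higher at P14 than at E15.5 (log2 fold change 2.17, SE 0.47, adjusted p = 0.00142; 1.78 without E15.5 replicate 3, adjusted p = 0.00937). In MB it was lower than at P7 (log2 fold change -1.93, SE 0.47, adjusted p = 0.00441), while from P7 to P14 the change did not pass the test (log2 fold change 0.93, SE 0.45, adjusted p = 0.194). Cacna1e encodes the R-type pore. Its level was 58.7, 103 and 19.7 CPM in the E15.5 libraries, 105, 105 and 336 at P1, 306, 266 and 313 at P7 and 492, 285 and 363 at P14. Cacna1e in MB was at 57.8, 47.1 and 61.6 CPM, below every P1, P7 and P14 library and inside the E15.5 range. The rise from E15.5 to P14 was 6.27-fold in mean CPM (log2 fold change 2.66, SE 0.52, adjusted p = 6.25e-04; 2.16 without E15.5 replicate 3, adjusted p = 0.00198). The step from E15.5 to P1 (log2 fold change 1.59, SE 0.50, adjusted p = 0.0168) was not a call without either library that stood apart (1.11 without E15.5 replicate 3, adjusted p = 0.0598; 0.80 without P1 replicate 3, adjusted p = 0.162), and without P1 replicate 3 the step from P1 to P14 was 1.85 on the log2 scale. MB was lower than P7 (log2 fold change -2.41, SE 0.51, adjusted p = 0.00180).

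Cacna1b, the N-type pore, which shares the presynaptic role with Cacna1a, gave no call in any comparison. Its libraries were at 73.4 to 204 CPM at E15.5, 111 to 219 at P7, 131 to 205 at P14 and 95.8 to 145 in MB, and these ranges overlapped. The log2 fold change from E15.5 to P14 was 0.17 (SE 0.34, adjusted p = 0.700). The ratio of Cacna1a to Cacna1b, per kilobase, was 0.676, 0.626 and 0.662 in the E15.5 libraries, 1.47, 1.18 and 1.54 at P7, 2.38, 2.65 and 2.81 at P14 and 0.558, 0.521 and 0.447 in MB. The balance between the presynaptic pores was thus higher at P14 than at E15.5 in all libraries, and lower in MB than at P7.

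The neuronal L-type pores, whose calcium entry is known to feed gene regulation, rose with age and were not called in MB against P7. Cacna1c encodes the L-type pore best known from heart and smooth muscle, which neurons make as well. It was at 52.7, 59.2 and 22.9 CPM in the E15.5 libraries, 46.2, 47.3 and 96.2 at P1, 94.0, 76.3 and 130.5 at P7 and 137, 85.2 and 109 at P14. Cacna1c in MB was at 80.4, 69.3 and 73.8 CPM, above all E15.5 and below all P14 libraries. It rose 2.46-fold from E15.5 to P14 (log2 fold change 1.304, SE 0.35, adjusted p = 0.00591; 0.91 without E15.5 replicate 3, adjusted p = 0.0281). Cacna1d encodes an L-type pore that opens at more negative voltages and is known from pacemaking cells. It was at 29.5, 36.5 and 14.6 CPM in the E15.5 libraries, 27.1, 34.0 and 75.8 at P1, 63.1, 60.9 and 79.3 at P7 and 110.3, 73.7 and 92.5 at P14. Cacna1d in MB was at 97.3, 62.0 and 68.1 CPM, a range that overlapped P7 and P14. It rose 3.43-fold (log2 fold change 1.79, SE 0.37, adjusted p = 0.00113; 1.41 without E15.5 replicate 3, adjusted p = 0.00661). Between MB and P7 the log2 fold change was -0.43 for Cacna1c (adjusted p = 0.368) and 0.16 for Cacna1d (adjusted p = 0.773). Cacna1f, the retinal L-type pore, was low throughout, between 0 and 1.502 CPM, and was not called.

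Cacna1s, the L-type pore known from skeletal muscle, went the other way. Its level was 6.85, 6.18 and 6.83 CPM in the E15.5 libraries, 7.85, 4.26 and 3.13 at P1, 2.63, 2.57 and 2.77 at P7 and 1.48, 1.39 and 2.04 at P14. Cacna1s in MB was at 0.198, 0.195 and 0.160 CPM. P14 lay below all libraries of the earlier ages, and MB below all the rest. It fell from E15.5 to P14 (log2 fold change -2.02, SE 0.32, adjusted p = 1.21e-04; -2.06 without E15.5 replicate 3, adjusted p = 4.56e-04) and was 14.4-fold lower in MB than at P7 (log2 fold change -3.81, SE 0.39, adjusted p = 2.97e-06). The fall from P1 to P14 (log2 fold change -1.63, SE 0.32, adjusted p = 0.00942; -1.89 without P1 replicate 3, adjusted p = 9.86e-04) was a call lost without P1 replicate 1, or P14 replicate 1 or 2 (adjusted p = 0.0517 to 0.0714). Of the skeletal muscle markers, Myh8 was at 29.5 to 69.7 CPM at E15.5, 0.101 to 0.134 at P14 and 0 to 0.0244 in MB. Ckm was at or near 0 (0 to 0.0525 CPM at E15.5), and Acta1 was at 0.668 to 1.44 CPM at E15.5. Of 3 markers tested, 1 was called lower in P14 against E15.5 and 1 in MB against P7. All 4 markers, with Ttn, summed to 32.8 to 75.0 CPM at E15.5, 4.25 to 8.78 at P7, 4.76 to 5.70 at P14 and 3.52 to 9.96 in MB. Their part in the Cacna1s result was not tested.

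Each of the T-type pores, which open near the resting potential, had its own course. Cacna1g was at 102, 111 and 73.4 CPM in the E15.5 libraries, 28.7, 46.8 and 100.5 at P1, 97.6, 40.04 and 70.4 at P7 and 155, 113 and 163 at P14. Cacna1g in MB was at 3.13, 2.66 and 5.72 CPM, below every other library. The MB mean was 18.1-fold below that of P7 (log2 fold change -4.18, SE 0.47, adjusted p = 7.58e-06), one of the 2 largest falls among the members in that comparison. The gene is known for high expression in Purkinje cells, whose 8 markers summed to 389 to 1019.5 CPM at P7 and 32.8 to 47.7 in MB. At E15.5 these markers summed to 187 to 314 CPM. The part of Purkinje cells in the Cacna1g result was not tested. In Cacna1g all 3 P14 libraries lay above those of the earlier ages, but the difference from E15.5 did not pass the test (log2 fold change 0.59, SE 0.41, adjusted p = 0.241). Cacna1h encodes a T-type pore known from sensory neurons. It was at 36.2, 40.2 and 22.8 CPM in the E15.5 libraries, 7.38, 10.1 and 7.99 at P1, 11.1, 6.71 and 10.9 at P7 and 9.58, 8.23 and 10.1 at P14. Cacna1h in MB was at 6.39, 7.84 and 19.1 CPM. The E15.5 libraries were the highest of all 5 groups, and the fall was in place at P1 (log2 fold change -1.96, SE 0.37, adjusted p = 6.23e-04; -2.22 without E15.5 replicate 3, adjusted p = 6.24e-04; -1.92 without P1 replicate 3, adjusted p = 0.00369). Cacna1i encodes the T-type pore that is found mostly in brain. It was at 11.47, 19.6 and 5.70 CPM in the E15.5 libraries, 4.63, 4.50 and 16.2 at P1, 5.26, 4.36 and 7.59 at P7 and 27.0, 21.6 and 25.2 at P14. Cacna1i in MB was at 1.78, 1.93 and 2.08 CPM. P14 lay above all other groups and MB below all of them. From P7 to P14 it rose 4.29-fold (log2 fold change 2.10, SE 0.48, adjusted p = 0.0178), a call lost without P7 replicate 2 or any 1 P14 library (adjusted p = 0.0535 to 0.0935). MB against P7 was called lower (log2 fold change -1.56, SE 0.49, adjusted p = 0.0224), a call lost without P7 replicate 3, or MB replicate 1 or 2 (adjusted p = 0.0530 to 0.0813). Against P14 the fall in MB was -3.67 on the log2 scale (adjusted p = 4.12e-05).

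Cacna1i on chromosome 15 was 1 of the 5 members that rose between P7 and P14, so its start site is shown. The 250 bases before the RefSeq start (chr15:80286988-80287237, plus strand, GRCm38.p6) hold 16 CpG, which are in capitals:
Cacna1i: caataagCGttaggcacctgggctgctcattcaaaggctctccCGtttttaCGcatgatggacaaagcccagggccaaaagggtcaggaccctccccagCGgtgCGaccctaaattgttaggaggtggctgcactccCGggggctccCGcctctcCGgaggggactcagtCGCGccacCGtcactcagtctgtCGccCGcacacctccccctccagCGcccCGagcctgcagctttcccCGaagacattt

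The alpha2delta subunits are largely extracellular proteins that raise the number of calcium channels at the surface and bind gabapentin-type drugs. The family was split in the tumour: MB had more Cacna2d1 and less Cacna2d2 and Cacna2d3 than any precursor library. Cacna2d1 is the main binding site of gabapentin. It was at 101, 106 and 54.8 CPM in the E15.5 libraries, 185, 152 and 263 at P1, 197, 227 and 169 at P7 and 289.6, 213 and 232 at P14. Cacna2d1 in MB was at 723, 428 and 591 CPM, above all the others. It was 2.93-fold higher in MB than at P7 (log2 fold change 1.55, SE 0.28, adjusted p = 4.71e-04). With age it had risen by P1 (log2 fold change 1.198, SE 0.28, adjusted p = 0.00258; 0.90 without E15.5 replicate 3, adjusted p = 0.0136; 0.95 without P1 replicate 3, adjusted p = 0.0159), and P14 against E15.5 was called too (log2 fold change 1.49, SE 0.28, adjusted p = 4.41e-04; 1.17 without E15.5 replicate 3, adjusted p = 0.00242).

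Cacna2d2 is the gene mutated in the ataxic ducky mouse. It was at 77.7, 92.8 and 46.1 CPM in the E15.5 libraries, 19.3, 25.4 and 33.0 at P1, 48.5, 22.1 and 37.8 at P7 and 33.7, 23.2 and 31.99 at P14. Cacna2d2 in MB was at 2.42, 1.88 and 1.28 CPM, below every other library. It fell from E15.5 to P1 (log2 fold change -1.48, SE 0.33, adjusted p = 0.00196; -1.77 without E15.5 replicate 3, adjusted p = 7.57e-04; -1.69 without P1 replicate 3, adjusted p = 0.00279) and to P14 (log2 fold change -1.28, SE 0.32, adjusted p = 0.00420; -1.59 without E15.5 replicate 3, adjusted p = 0.00121), and was 19.4-fold lower in MB than at P7 (log2 fold change -4.27, SE 0.38, adjusted p = 7.19e-07). The gene is known to be strongly expressed in Purkinje cells, and the Purkinje cell marker sum in MB, given above, was below that of every precursor library. At E15.5, where Cacna2d2 was highest, that sum was 187 to 314 CPM, against 389 to 1019.5 at P7. The part of Purkinje cells in the Cacna2d2 result was not tested. Cacna2d3 is known from studies of hearing and pain. It was at 46.9, 42.2 and 52.7 CPM in the E15.5 libraries, 11.03, 13.3 and 44.3 at P1, 27.8, 29.6 and 36.7 at P7 and 63.0, 73.4 and 67.1 at P14. Cacna2d3 in MB was at 10.4, 7.84 and 9.25 CPM, the lowest group, and P14 was the highest. MB against P7 was called (log2 fold change -1.78, SE 0.39, adjusted p = 0.00217). Its fall from E15.5 to P1 (log2 fold change -1.05, SE 0.38, adjusted p = 0.0335; -1.96 without P1 replicate 3, adjusted p = 1.17e-05) was a call lost without E15.5 replicate 1 or 3, or P1 replicate 1 or 2 (adjusted p = 0.0637 to 0.138). The rise from P1 to P14 (log2 fold change 1.57, SE 0.38, adjusted p = 0.0238; 2.48 without P1 replicate 3, adjusted p = 2.68e-05) was lost without P1 replicate 1 or 2, or any 1 P14 library (adjusted p = 0.0652 to 0.138). Cacna2d4, known from photoreceptors, was at 0.472 to 1.74 CPM in all libraries and rose from E15.5 to P14 (log2 fold change 1.41, SE 0.42, adjusted p = 0.0110; 1.27 without E15.5 replicate 3, adjusted p = 0.0479).

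The sequences before the starts of the alpha2delta genes that moved apart in MB are set side by side. They are the 250 bases before the RefSeq starts of Cacna2d1 (chr5:15934441-15934690, plus strand, GRCm38.p6, 36 CpG) and Cacna2d2 (chr9:107399630-107399879, plus strand, GRCm38.p6, 34 CpG), with CpG in capitals:
Cacna2d1: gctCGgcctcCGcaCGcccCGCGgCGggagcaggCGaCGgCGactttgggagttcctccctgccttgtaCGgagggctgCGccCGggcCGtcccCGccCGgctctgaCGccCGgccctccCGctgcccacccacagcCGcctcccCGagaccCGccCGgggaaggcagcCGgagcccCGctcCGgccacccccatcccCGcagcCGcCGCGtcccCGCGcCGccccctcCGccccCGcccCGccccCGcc
Cacna2d2: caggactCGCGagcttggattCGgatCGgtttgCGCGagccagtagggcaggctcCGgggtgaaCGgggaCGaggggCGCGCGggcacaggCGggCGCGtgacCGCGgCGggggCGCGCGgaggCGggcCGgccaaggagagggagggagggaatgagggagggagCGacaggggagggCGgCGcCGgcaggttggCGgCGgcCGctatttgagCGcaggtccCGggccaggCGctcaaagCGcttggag
Both starts lie in CpG-dense sequence: in the full windows of 300 bases (250 before the start to 50 after it) they have 42 and 43 CpG, against a median of 7 over the 32851 windows of the RefSeq table. These counts describe the sequences, and their part in the MB levels was not tested.

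Beta subunits are cytoplasmic proteins that bind the alpha1 pore and aid its traffic to the membrane. Of the 4 genes, 1 rose and 2 fell from E15.5 to P14 (background 26.7% and 24.2%), and 3 were lower in MB than at P7 (background 20.7%). Cacnb3 was the most abundant of them per kilobase. It was at 231, 187 and 246 CPM in the E15.5 libraries, 63.9, 52.5 and 82.0 at P1, 111, 123 and 134 at P7 and 109, 120.3 and 129 at P14. Cacnb3 in MB was at 48.1, 34.6 and 54.2 CPM. The E15.5 libraries were the highest of all. It fell from E15.5 to P1 (log2 fold change -1.74, SE 0.20, adjusted p = 1.05e-05; -1.71 without E15.5 replicate 3, adjusted p = 4.40e-05; -1.93 without P1 replicate 3, adjusted p = 1.84e-05), and P14 stayed below E15.5 (log2 fold change -0.89, SE 0.20, adjusted p = 0.00177; -0.87 without E15.5 replicate 3, adjusted p = 0.00406). From P1 to P7 it rose (log2 fold change 0.89, SE 0.20, adjusted p = 0.0291; 1.08 without P1 replicate 3, adjusted p = 0.0121), a call lost without P1 replicate 1 or 2, or any 1 P7 library (adjusted p = 0.0591 to 0.183); P14 against P1 (log2 fold change 0.86, SE 0.20, adjusted p = 0.0196; 1.04 without P1 replicate 3, adjusted p = 0.00397) was lost without P1 replicate 1 or 2, or any 1 P14 library (adjusted p = 0.0516 to 0.128). In MB it was lower than at P7 (log2 fold change -1.43, SE 0.20, adjusted p = 5.87e-05). Cacnb1 encodes the beta subunit of skeletal muscle channels and is also made in brain. It was at 110.2, 111 and 116 CPM in the E15.5 libraries, 24.98, 25.8 and 27.2 at P1, 42.5, 34.5 and 51.0 at P7 and 36.5, 33.7 and 34.5 at P14. Cacnb1 in MB was at 8.05, 14.9 and 17.5 CPM, the lowest group, as E15.5 was the highest. It fell 4.31-fold from E15.5 to P1 (log2 fold change -2.11, SE 0.23, adjusted p = 7.04e-06; -2.13 without E15.5 replicate 3, adjusted p = 3.80e-05; -2.14 without P1 replicate 3, adjusted p = 5.69e-05) and was lower again in MB than at P7 (log2 fold change -1.66, SE 0.23, adjusted p = 5.49e-05).

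Cacnb4, the beta subunit whose loss gives the lethargic mouse its ataxia, was at 30.4, 34.7 and 27.2 CPM in the E15.5 libraries, 20.1, 28.4 and 75.3 at P1, 48.8, 43.2 and 22.5 at P7 and 97.4, 86.5 and 87.3 at P14. Cacnb4 in MB was at 37.4, 17.2 and 15.49 CPM, within reach of P7. P14 was above all libraries of the other groups, and the rise from E15.5 passed the test (log2 fold change 1.56, SE 0.44, adjusted p = 0.00827; 1.41 without E15.5 replicate 3, adjusted p = 0.0389), while MB against P7 did not (log2 fold change -0.71, SE 0.43, adjusted p = 0.228). Cacnb2 encodes the main beta subunit of heart channels. It was at 12.4, 15.6 and 11.3 CPM in the E15.5 libraries, 8.41, 11.01 and 9.19 at P1, 10.1, 9.66 and 6.78 at P7 and 7.62, 7.02 and 8.86 at P14. Cacnb2 in MB was at 1.90, 1.22 and 0.360 CPM, below every precursor library, and lower than at P7 (log2 fold change -2.92, SE 0.40, adjusted p = 4.82e-05). All 3 P14 libraries lay below the E15.5 libraries, but that difference was not called (log2 fold change -0.74, SE 0.36, adjusted p = 0.102).

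Of the gamma subunits, Cacng2 (stargazin), Cacng3, Cacng4 and Cacng8 are TARPs, and Cacng5 and Cacng7 are related proteins that also bind AMPA receptors. Between E15.5 and P14, 2 of 6 tested rose and 2 fell (background 26.7% and 24.2%). In MB against P7 only Cacng3 was called, as higher (background 13.7% higher and 20.7% lower). Cacng2, the gene mutated in the stargazer mouse, was at 71.3, 106 and 51.5 CPM in the E15.5 libraries, 144, 105 and 150.1 at P1, 144, 153 and 441 at P7 and 181, 148 and 173 at P14. Cacng2 in MB was at 179, 220.2 and 382 CPM, within the P7 range. P14 against E15.5 was higher (log2 fold change 1.13, SE 0.40, adjusted p = 0.0273; 0.85 without E15.5 replicate 3, adjusted p = 0.135), a call lost without E15.5 replicate 1 or 3, or P14 replicate 1 or 3 (adjusted p = 0.0608 to 0.135). Cacng4 is known as a TARP of the developing brain. It was at 290.2, 305 and 209 CPM in the E15.5 libraries, 114, 90.3 and 77.1 at P1, 102, 88.1 and 142 at P7 and 67.7, 57.2 and 62.3 at P14. Cacng4 in MB was at 41.8, 73.9 and 89.0 CPM. The E15.5 libraries were the highest of all groups, and P14 was 4.30-fold lower (log2 fold change -2.10, SE 0.27, adjusted p = 1.72e-05; -2.32 without E15.5 replicate 3, adjusted p = 2.98e-05). Cacng3 is a TARP known best from the forebrain. It was at 6.89, 6.18 and 6.72 CPM in the E15.5 libraries, 4.55, 1.86 and 1.70 at P1, 1.02, 2.01 and 3.16 at P7 and 0.573, 0.241 and 0.468 at P14. Cacng3 in MB was at 2.499, 22.2 and 15.8 CPM, so that MB replicate 1 lay within the P7 range. At low levels it fell from E15.5 to P14 (log2 fold change -3.95, SE 0.71, adjusted p = 3.30e-04; -4.001 without E15.5 replicate 3, adjusted p = 0.00115) and was higher in MB than at P7 (log2 fold change 2.72, SE 0.64, adjusted p = 0.00359), but not with MB replicate 1 as the only MB library (0.33, adjusted p = 0.709). P14 against P1 (log2 fold change -2.65, SE 0.70, adjusted p = 0.0319; -2.90 without P1 replicate 3, adjusted p = 0.0153) was a call lost without P1 replicate 1 or 2, or any 1 P14 library (adjusted p = 0.0783 to 0.181).

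Cacng5 was at 26.1, 22.6 and 26.8 CPM in the E15.5 libraries, 63.6, 45.0 and 61.6 at P1, 52.3, 32.9 and 35.1 at P7 and 65.3, 65.8 and 56.7 at P14. Cacng5 in MB was at 34.7, 71.4 and 76.6 CPM. E15.5 was the lowest group, and the rise was in place at P1 (log2 fold change 1.17, SE 0.27, adjusted p = 0.00237; 1.17 without E15.5 replicate 3, adjusted p = 0.0103; 1.11 without P1 replicate 3, adjusted p = 0.00926) and held at P14 (log2 fold change 1.31, SE 0.27, adjusted p = 8.90e-04; 1.29 without E15.5 replicate 3, adjusted p = 0.00498). Cacng7 is known to be made in the cerebellum. It was at 132, 142 and 157 CPM in the E15.5 libraries, 49.7, 57.9 and 90.8 at P1, 166, 142 and 172 at P7 and 134, 140.1 and 135 at P14. Cacng7 in MB was at 78.1, 159 and 112 CPM. P1 was the low point: its libraries lay below all those of the other 3 ages. It fell from E15.5 to P1 (log2 fold change -1.12, SE 0.25, adjusted p = 0.00190; -1.10 without E15.5 replicate 3, adjusted p = 0.00566; -1.42 without P1 replicate 3, adjusted p = 5.38e-04). The rise from P1 to P7 (log2 fold change 1.27, SE 0.25, adjusted p = 0.0186; 1.57 without P1 replicate 3, adjusted p = 0.00442) was a call lost without P1 replicate 1 or 2, or any 1 P7 library (adjusted p = 0.0512 to 0.121). P14 against P1 (log2 fold change 1.04, SE 0.25, adjusted p = 0.0209; 1.34 without P1 replicate 3, adjusted p = 0.00212) was lost without P1 replicate 1 or 2, or any 1 P14 library (adjusted p = 0.0654 to 0.134). At P14 the level was back in the E15.5 range (log2 fold change -0.07, SE 0.24, adjusted p = 0.816). Cacng8 was between 0.635 and 7.93 CPM in all libraries and was not called in any comparison.

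**Figure D2:**
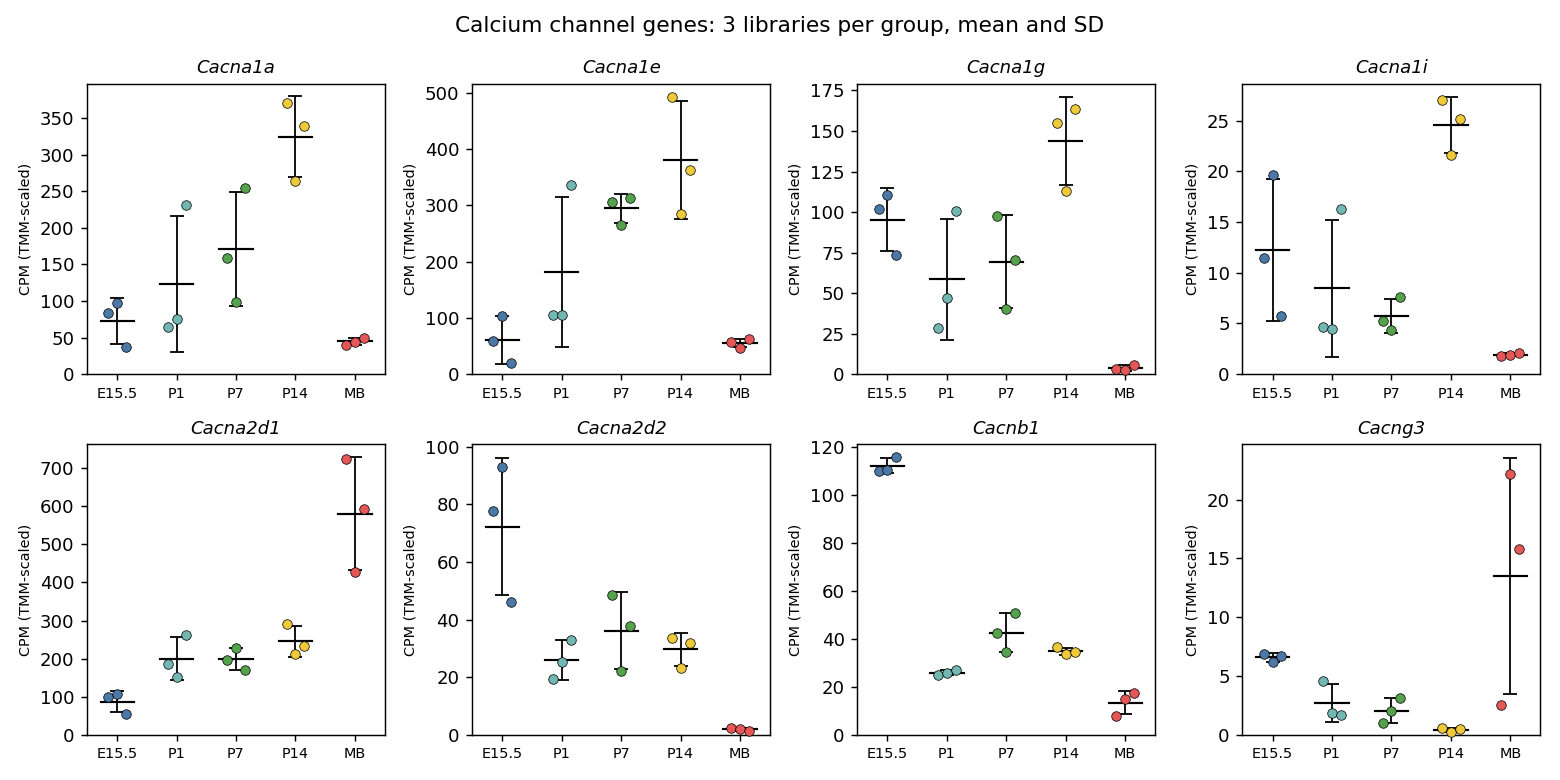
CPM on a linear axis from 0 of 8 calcium channel members in each of the 15 libraries, 1 point per library, with groups along the horizontal axis, a line at the group mean and error bars of 1 SD. The means of Cacna1a and Cacna1e step up with age and are lowest in MB, Cacnb1 is highest at E15.5, and Cacna2d1 and Cacna2d2 part in MB, where Cacna2d1 reaches 428 to 723 CPM and Cacna2d2 1.28 to 2.42.

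Among sodium channel pores, the embryonic gene Scn3a fell with age while Scn2a rose, and MB had more Scn3a than P7. Of the 8 alpha genes tested, 4 rose and 2 fell between E15.5 and P14 (background 26.7% and 24.2%). In MB against P7, 3 were higher and 1 lower (background 13.7% and 20.7%). Scn3a, known for its embryonic expression in brain, was at 85.4, 97.3 and 65.7 CPM in the E15.5 libraries, 32.6, 24.9 and 25.5 at P1, 21.2, 18.3 and 25.8 at P7 and 13.1, 10.04 and 12.8 at P14. Scn3a in MB was at 47.6, 49.3 and 54.9 CPM. The order of levels was E15.5, then MB, then P1 and P7, then P14, and the libraries of E15.5, of MB and of P14 overlapped with no other group. It was 6.90-fold lower at P14 than at E15.5 (log2 fold change -2.79, SE 0.21, adjusted p = 1.40e-07; -2.997 without E15.5 replicate 3, adjusted p = 2.54e-07), and the fall from P1 to P14 passed the test as well (log2 fold change -1.21, SE 0.20, adjusted p = 0.00366; -1.26 without P1 replicate 3, adjusted p = 0.00161). From P7 to P14 it fell (log2 fold change -0.86, SE 0.20, adjusted p = 0.0178), a call lost without P7 replicate 3, or P14 replicate 2 or 3 (adjusted p = 0.0546 to 0.0980). In MB it was 2.32-fold higher than at P7 (log2 fold change 1.22, SE 0.20, adjusted p = 2.12e-04). Scn2a is known to populate the initial segment and unmyelinated axons of young neurons. It was at 37.7, 56.2 and 28.6 CPM in the E15.5 libraries, 31.9, 30.5 and 93.8 at P1, 32.7, 30.4 and 27.2 at P7 and 119, 99.2 and 101 at P14. Scn2a in MB was at 20.2, 12.7 and 19.6 CPM. P14 lay above and MB below the libraries of all other groups. From E15.5 to P14 it rose 2.60-fold (log2 fold change 1.38, SE 0.37, adjusted p = 0.00591; 1.11 without E15.5 replicate 3, adjusted p = 0.0374). From P7 to P14 the rise was 3.53-fold (log2 fold change 1.82, SE 0.37, adjusted p = 0.0116), a call lost without P7 replicate 2 or P14 replicate 2 (adjusted p = 0.0536 to 0.0648). MB against P7 did not pass (log2 fold change -0.78, SE 0.37, adjusted p = 0.116) and MB against P14 did (log2 fold change -2.60, SE 0.39, adjusted p = 5.66e-05).

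The ratio of Scn2a to Scn3a, per kilobase of exon, was 0.482, 0.630 and 0.475 in the E15.5 libraries, 1.07, 1.34 and 4.01 at P1, 1.68, 1.81 and 1.15 at P7, 9.85, 10.8 and 8.61 at P14 and 0.463, 0.282 and 0.390 in MB. Within a library the balance of these neighbouring genes was thus highest at P14 and lowest in MB, and neither group overlapped with any other. Of the 2 RefSeq start windows of Scn2a, the 1 on chromosome 2 with a TATAAA match is shown, since Scn2a and Cacna1d were the only members with one. The 250 bases before that start (chr2:65668436-65668685, plus strand, GRCm38.p6) hold the match 84 bases before the start and 9 CpG, in capitals:
Scn2a: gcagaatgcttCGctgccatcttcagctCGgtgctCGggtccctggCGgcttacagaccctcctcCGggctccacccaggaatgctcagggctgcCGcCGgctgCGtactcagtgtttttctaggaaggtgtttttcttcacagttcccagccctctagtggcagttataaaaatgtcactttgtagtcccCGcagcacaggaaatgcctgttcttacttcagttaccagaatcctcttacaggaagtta

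Scn8a, the main sodium channel of mature nodes and initial segments, was the most abundant sodium channel gene per kilobase in each of the 5 groups and was not called in any comparison. Its libraries were at 74.8 to 212 CPM at E15.5, 166 to 256 at P1, 216 to 323 at P7, 204 to 298 at P14 and 203 to 220.0 in MB, and its lowest value was that of E15.5 replicate 3. The log2 fold change from E15.5 to P14 was 0.65 (SE 0.31, adjusted p = 0.0903) and from P7 to MB -0.27 (SE 0.31, adjusted p = 0.542). Scn1a is the gene of Dravet syndrome and is known best from inhibitory neurons. It was at 10.2, 13.9 and 6.70 CPM in the E15.5 libraries, 8.93, 11.01 and 18.2 at P1, 19.8, 12.3 and 12.5 at P7 and 21.3, 18.5 and 23.9 at P14. Scn1a in MB was at 10.1, 9.28 and 7.81 CPM, below P7 and P14. The rise from E15.5 to P14 (log2 fold change 1.06, SE 0.31, adjusted p = 0.0106; 0.75 without E15.5 replicate 3) was a call lost without E15.5 replicate 3 (adjusted p = 0.0636). Scn9a is known from peripheral sensory neurons. It was at 32.1, 48.7 and 22.0 CPM in the E15.5 libraries, 11.8, 6.90 and 6.03 at P1, 2.83, 3.48 and 2.504 at P7 and 1.38, 1.15 and 0.702 at P14. Scn9a in MB was at 0.555, 1.10 and 1.04 CPM. Each age lay below the one before it with no overlap, and MB overlapped P14. The fall from E15.5 to P14 was 31.8-fold (log2 fold change -4.98, SE 0.42, adjusted p = 3.57e-07; -5.29 without E15.5 replicate 3, adjusted p = 8.09e-07), and the first step passed the test (log2 fold change -2.05, SE 0.36, adjusted p = 3.43e-04; -2.33 without E15.5 replicate 3, adjusted p = 2.87e-04; -1.87 without P1 replicate 3, adjusted p = 0.00252). P7 against P1 (log2 fold change -1.49, SE 0.36, adjusted p = 0.0395; -1.67 without P1 replicate 3, adjusted p = 0.0239) was a call lost without P1 replicate 1 or 2, or any 1 P7 library (adjusted p = 0.101 to 0.130), and P14 against P7 (log2 fold change -1.45, SE 0.38, adjusted p = 0.0283) was lost without P7 replicate 1 or 2, or any 1 P14 library (adjusted p = 0.0509 to 0.116). MB was lower than P7 (log2 fold change -1.69, SE 0.39, adjusted p = 0.00298), but in the deposited transcript table that fall (-0.64, adjusted p = 0.213) and the falls from P1 to P7 and P7 to P14 were not called, and the gene table held 0.325 to 0.929 of the transcript table's reads over Scn9a.

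Apart from Scn9a, sodium channel alpha genes known from muscle, glia or sensory neurons were at low levels. Scn7a was between 0.131 and 3.27 CPM, lowest at E15.5 and highest in MB, and it was called in both comparisons (P14 against E15.5, log2 fold change 3.05, SE 0.45, adjusted p = 6.44e-05; 2.82 without E15.5 replicate 3, adjusted p = 0.00103; MB against P7, log2 fold change 1.58, SE 0.36, adjusted p = 0.00308). Scn11a was at most 1.35 CPM and rose at P14 (against E15.5, log2 fold change 2.06, SE 0.69, adjusted p = 0.0216; 1.47 without E15.5 replicate 3, adjusted p = 0.123), a call lost without E15.5 replicate 3 or P14 replicate 1 (adjusted p = 0.0777 to 0.123); its rise from P7 to P14 (log2 fold change 2.79, SE 0.69, adjusted p = 0.0230) was lost without any 1 P7 library or any 1 P14 library (adjusted p = 0.0542 to 0.0949). Too few reads were counted to test Cacng1 (75 counts in all 15 libraries), Cacng6 (40), Scn4a (29) and Scn10a (13).

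Among the sodium channel beta genes, Scn3b fell and Scn2b and Scn4b rose between E15.5 and P14. Beta subunits are single-pass proteins of the immunoglobulin fold that tune gating and bind other adhesion molecules. Scn2b encodes a beta subunit that is joined to the pore by a disulfide bond. It was at 13.3, 16.6 and 9.93 CPM in the E15.5 libraries, 9.40, 12.7 and 29.99 at P1, 15.7, 10.54 and 14.9 at P7 and 48.6, 44.0 and 50.01 at P14. Among the P1 libraries, replicate 3 was the highest in Scn2b. That library was also the highest at P1 in the sums of oligodendrocyte lineage (3818 CPM), granule lineage (5884) and astroglial markers (3844). It was the lowest in that of dividing cells (1605). The part of these cells in the Scn2b value was not tested. Scn2b in MB was at 1.15, 9.28 and 8.61 CPM, below every other library. It rose from E15.5 to P14 (log2 fold change 1.85, SE 0.55, adjusted p = 0.0110; 1.60 without E15.5 replicate 3), a call lost without E15.5 replicate 3 (adjusted p = 0.0561). From P7 to P14 the rise was 3.47-fold (log2 fold change 1.79, SE 0.54, adjusted p = 0.0486), and it was lost without any 1 P7 library or any 1 P14 library (adjusted p = 0.0895 to 0.177). MB against P7 was not called (log2 fold change -1.10, SE 0.54, adjusted p = 0.132).

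Scn3b encodes a beta subunit known from the embryonic brain. It was at 122, 175 and 126 CPM in the E15.5 libraries, 52.9, 41.2 and 58.7 at P1, 51.3, 75.5 and 68.4 at P7 and 55.2, 47.6 and 49.3 at P14. Scn3b in MB was at 48.7, 43.0 and 37.0 CPM. E15.5 was the highest group, and the fall was in place at P1 (log2 fold change -1.47, SE 0.20, adjusted p = 4.75e-05; -1.59 without E15.5 replicate 3, adjusted p = 8.18e-05; -1.58 without P1 replicate 3, adjusted p = 1.43e-04), with P14 against E15.5 at the same size (log2 fold change -1.47, SE 0.20, adjusted p = 3.22e-05; -1.62 without E15.5 replicate 3, adjusted p = 4.92e-05). The smaller fall in MB against P7 (log2 fold change -0.60, SE 0.20, adjusted p = 0.0290) was a call lost without P7 replicate 2 or 3, or MB replicate 2 or 3 (adjusted p = 0.0669 to 0.110). Scn4b, the subunit linked to resurgent current in Purkinje cells, was low: 1.37 to 1.73 CPM at P1, 1.27 to 3.44 at P14 and 0 to 0.120 in MB, with 2 counts in all over the E15.5 libraries. It was called higher at P14 than at E15.5 (adjusted p = 3.75e-05; 7.36e-04 without E15.5 replicate 3) and lower in MB than at P7 (log2 fold change -3.11, SE 0.80, adjusted p = 0.00662). P14 against P7 (log2 fold change 2.18, SE 0.57, adjusted p = 0.0286) was lost without P7 replicate 2 or 3, or any 1 P14 library (adjusted p = 0.0604 to 0.128).

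Scn2b is shown because it rose beside its neighbour Scn4b between P7 and P14. In contrast with Cacna2d1, the 250 bases before its RefSeq start (chr9:45117626-45117875, plus strand, GRCm38.p6) hold 1 CpG, in capitals:
Scn2b: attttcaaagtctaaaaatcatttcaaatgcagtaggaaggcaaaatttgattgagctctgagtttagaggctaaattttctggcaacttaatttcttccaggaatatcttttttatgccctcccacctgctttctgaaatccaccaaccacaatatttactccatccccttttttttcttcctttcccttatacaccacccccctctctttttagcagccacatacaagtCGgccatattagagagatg

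**Figure D3:**
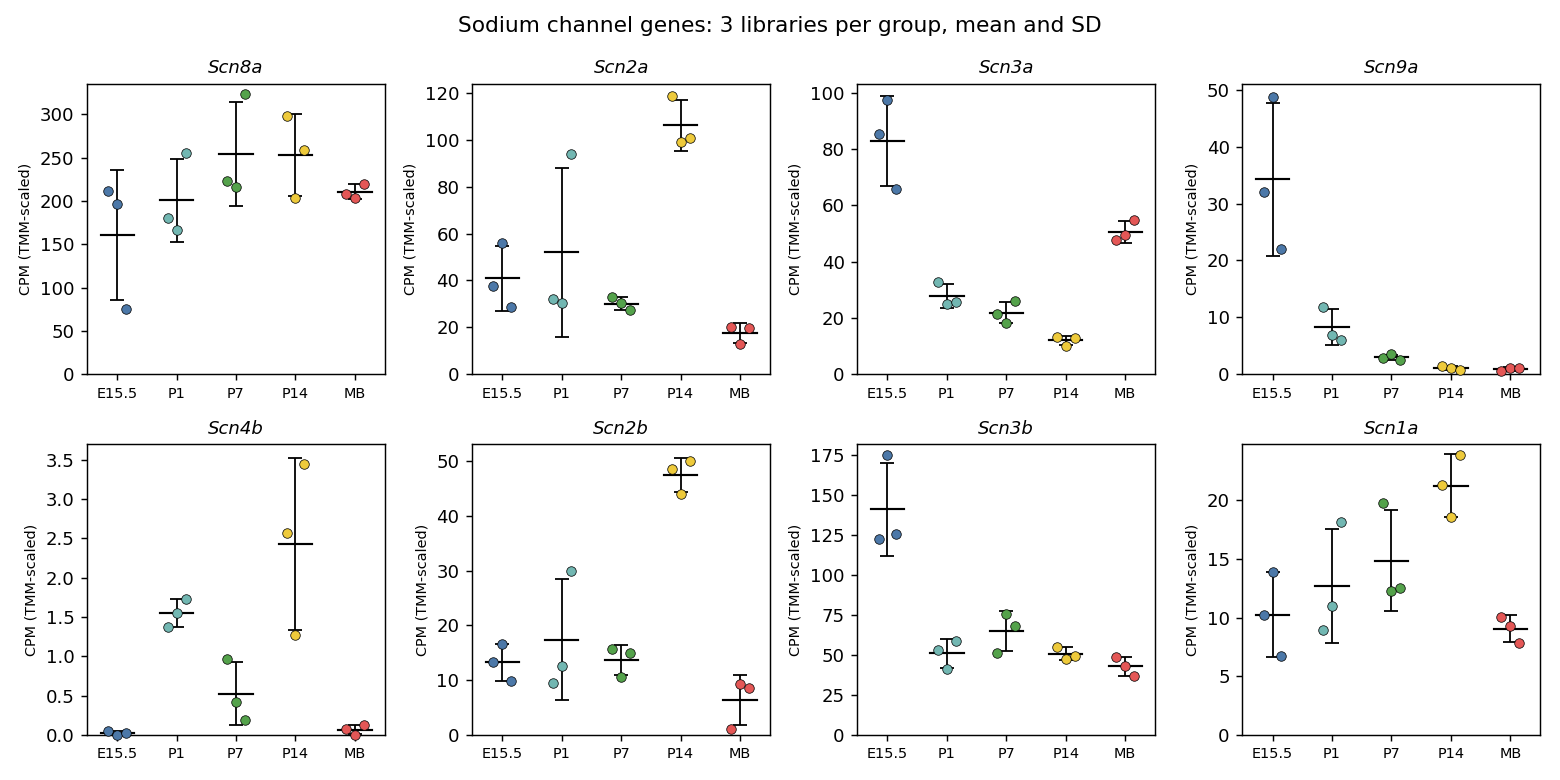
CPM on a linear axis from 0 of 8 sodium channel members in each of the 15 libraries, 1 point per library, with groups along the horizontal axis, a line at the group mean and error bars of 1 SD. Scn3a and Scn3b are highest in the 3 E15.5 libraries, Scn2a and Scn2b are highest in the 3 P14 libraries, and Scn3a in MB (47.6 to 54.9 CPM) lies above P1, P7 and P14.

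Each family can be described by the share of each gene in the family's summed CPM per kilobase. No test was made on shares, which are given as the mean ± SD of 3 libraries. Of sodium channel alpha RNA, Scn8a made up 40.8% ± 8.81 at E15.5, 71.98% ± 5.08 at P7, 55.8% ± 2.49 at P14 and 65.5% ± 0.614 in MB. Scn3a went from 28.6% ± 5.69 at E15.5 to 3.33% ± 0.179 at P14 and was 19.7% ± 0.718 in MB. Scn2a went from 12.1% ± 2.70 at P7 to 32.4% ± 2.58 at P14. At P14 the sodium channel pore RNA was thus mostly Scn8a and Scn2a, and in MB mostly Scn8a and Scn3a. Of calcium channel alpha1 RNA, Cacna1a made up 17.2% ± 1.44 at E15.5, 32.6% ± 1.27 at P14 and 14.65% ± 1.38 in MB. Cacna1e made up 7.76% ± 3.02, 21.9% ± 1.85 and 10.499% ± 0.593 in the same groups. Cacna1b made up 26.3% ± 2.36, 12.5% ± 0.599 and 29.1% ± 4.64, and in MB it had the largest share of the family. Within alpha2delta, Cacna2d1 made up 30.5% ± 5.22 at E15.5, 57.6% ± 4.34 at P14 and 96.3% ± 0.498 in MB. Within beta, Cacnb3 made up 67.5% ± 3.38 at E15.5, 65.9% ± 2.84 at P14 and 70.2% ± 4.21 in MB. In CPM per kilobase, the summed sodium alpha level was 31.4 ± 10.6 at E15.5, 37.3 ± 5.47 at P14 and 26.6 ± 1.26 in MB, with 28.02 ± 8.33 at P1 and 28.9 ± 4.85 at P7. The summed calcium alpha1 level was 56.1 ± 22.0 at E15.5 and 64.6 ± 37.6 at P1, then 92.4 ± 24.5 at P7 and 135 ± 27.3 at P14, with MB at 41.5 ± 4.06. The summed calcium beta level was 122 ± 11.1 at E15.5 and 39.5 ± 9.13 at P1, then 65.1 ± 3.89 at P7 and 68.0 ± 3.01 at P14, with MB at 24.2 ± 4.01. The mean beta sum was thus lower at P1 than at E15.5 and higher at P7 and P14 than at P1, while the mean alpha1 sum was higher at P14 than at E15.5 and differed between E15.5 and P1 by less than the SD of either group, and both means were lowest in MB.

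**Figure D4:**
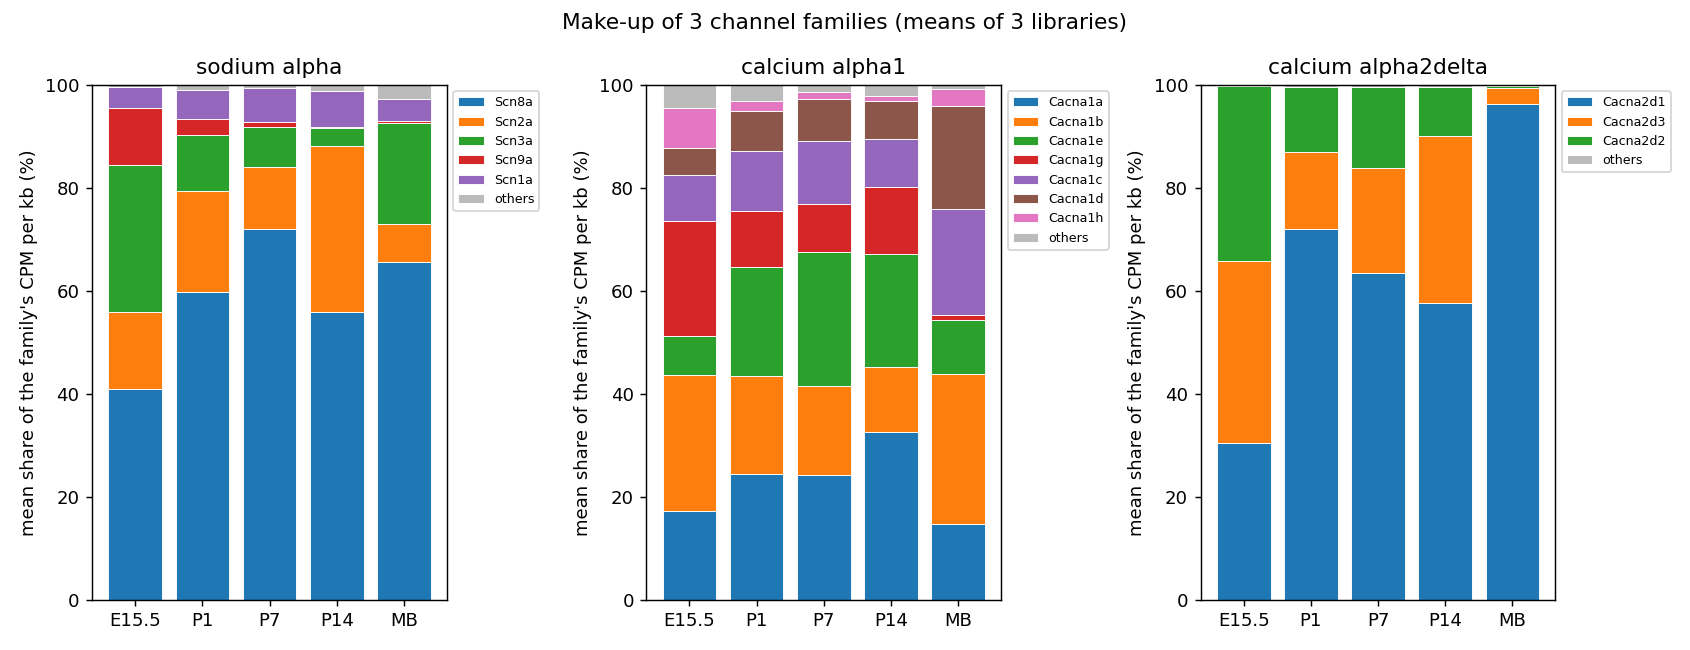
Mean share in percent of each member in its family's summed CPM per kilobase, as stacked bars from 0 to 100 for each of the 5 groups, in 3 panels (sodium alpha, calcium alpha1 and alpha2delta), with members under 3% in every group merged, error bars left out and each mean over 3 libraries. The Scn3a segment shrinks from 28.6% at E15.5 to 3.33% at P14 and is 19.7% in MB, and Cacna2d1 fills 96.3% of the alpha2delta bar in MB.

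P14 against E15.5 and MB against P7 share no library, so that the calls of each member can be set side by side. Of all genes tested, 26.7% were called higher and 24.2% lower in the first comparison, and 13.7% and 20.7% in the second. The share of all genes with each pair of calls was not computed, so the counts of members only describe them. Of the 16 members that rose with age, 2 were higher in MB (Cacna2d1 and Scn7a), 3 were lower (Cacna1a, Cacna1e and Scn4b) and 11 were not called, among them Scn1a, Scn2a, Scn2b, Cacna1c, Cacna1d and Cacnb4. Of the 10 that fell with age, 2 were higher in MB (Scn3a and Cacng3), 6 were lower (Cacna1s, Cacna2d2, Cacnb1, Cacnb3, Scn3b and Scn9a) and 2 were not called (Cacna1h and Cacng4). Cacna1g, Cacna1i, Cacna2d3 and Cacnb2 were lower in MB with no call between E15.5 and P14. Cacna1b, Cacna1f, Cacng7, Cacng8 and Scn8a were called in neither. Both directions in MB were seen among early and among late genes. Among the early genes, Scn3a was higher in MB and Cacnb1, Cacnb3 and Scn3b were lower. Among the late genes, Cacna2d1 was higher in MB and Cacna1a and Cacna1e were lower.

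**Figure D5:**
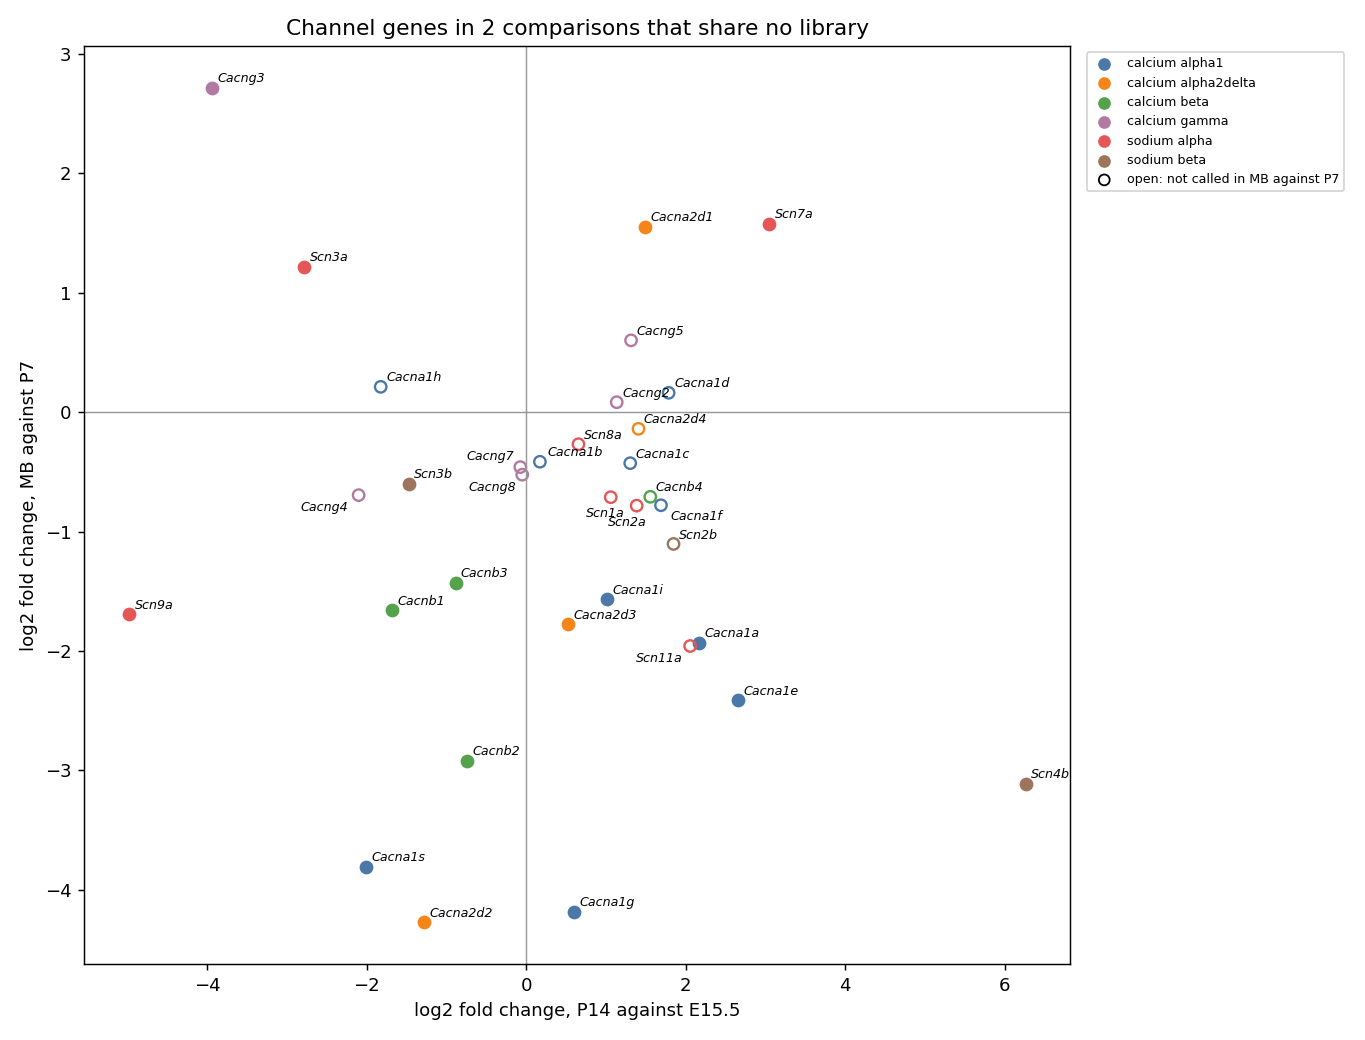
Log2 fold change of tested members from E15.5 to P14 (horizontal axis) against its log2 fold change from P7 to MB (vertical axis), 1 point per gene, coloured by subunit family, filled where MB against P7 was called and open where it was not. Genes lie on every side of both zero lines, with Cacna2d1 up in both, Scn3a and Cacng3 down with age and up in MB, Cacna1a and Cacna1e up with age and down in MB, and Cacnb1 and Cacnb3 down in both.

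Genes that work with the channels were read from 3 lists. Of all genes tested, 26.7% were called higher and 24.2% lower between E15.5 and P14, and 13.7% and 20.7% in MB against P7. Of 19 anchors and accessory proteins of sodium channels, 5 rose and 3 fell between E15.5 and P14 (median log2 fold change -0.14), and in MB against P7, 1 was higher and 9 were lower (median -0.61, beside 0.02 over all genes). Nfasc, the adhesion protein of the axon initial segment, was at 372 ± 69.1 CPM (SD, 3 libraries) at P7 and 79.1 ± 13.4 in MB (log2 fold change -2.23, SE 0.42, adjusted p = 6.72e-04). Fgf11, which encodes a cytoplasmic protein that binds sodium channels, was at 36.2 ± 4.35 CPM (SD, 3 libraries) at P7 and 5.76 ± 1.82 in MB (log2 fold change -2.65, SE 0.30, adjusted p = 8.03e-06). The 1 higher gene was Nalcn, the sodium leak channel, which was at 32.6 ± 3.92 CPM (SD, 3 libraries) at P7 and 174 ± 98.3 in MB (log2 fold change 2.41, SE 0.37, adjusted p = 1.41e-04). Of 20 presynaptic partners and regulators of calcium channels, 5 rose and 6 fell between E15.5 and P14 (median 0.09), and 5 were higher and 8 lower in MB than at P7 (median -0.39). For both lists the share called higher between E15.5 and P14 was close to that of all genes. Syt1, the calcium sensor of release, was at 151 ± 23.9 CPM (SD, 3 libraries) at P7 and 11.9 ± 2.78 in MB (log2 fold change -3.67, SE 0.26, adjusted p = 1.04e-07). Rims4, an active zone protein, was at 21.3 ± 6.97 CPM (SD, 3 libraries) at P7 and 2.47 ± 0.254 in MB (log2 fold change -3.10, SE 0.38, adjusted p = 1.47e-05). Cabp1, a calcium-binding regulator of channels, was at 3.81 ± 0.609 CPM (SD, 3 libraries) at P7 and 15.48 ± 7.96 in MB (log2 fold change 2.02, SE 0.35, adjusted p = 3.90e-04), and Rimbp2, an active zone scaffold, was at 2.495 ± 0.610 CPM (SD, 3 libraries) at P7 and 14.5 ± 17.1 in MB (log2 fold change 2.54, SE 0.73, adjusted p = 0.0136). From P1 to P14 the rises were led by Snap25, a fusion protein of synaptic vesicles, at 239 ± 199 CPM (SD, 3 libraries) at P1 and 689.6 ± 27.0 at P14 (log2 fold change 1.53, SE 0.40, adjusted p = 0.0313), and Rims4, at 15.3 ± 9.62 CPM (SD, 3 libraries) at P1 and 38.4 ± 5.37 at P14 (log2 fold change 1.33, SE 0.34, adjusted p = 0.0306). Without P1 replicate 3, an alternative chosen after seeing the data, the log2 fold changes were 2.48, adjusted p = 3.93e-05 for Snap25 and 1.98, adjusted p = 3.96e-04 for Rims4. In that fit 7 genes of the list rose and 1 fell (background 9.54% and 7.96%), against 4 and 1 with all libraries (background 3.63% and 5.31%).

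Of 26 genes of calcium stores, pumps, exchangers and calcium-dependent enzymes, 12 rose and 4 fell between E15.5 and P14 (background 26.7% and 24.2%, median log2 fold change 0.90). In MB against P7, 0 were higher by edgeR (1 at an unadjusted p under 0.05) and 14 were lower (background 13.7% and 20.7%, median -1.02). Camk2a, a kinase of mature synapses, was at 9.82 ± 5.77 CPM (SD, 3 libraries) at P7 and 0.171 ± 0.0817 in MB (log2 fold change -5.78, SE 0.56, adjusted p = 1.79e-06). Ryr2, a release channel of calcium stores, was at 119.5 ± 28.4 CPM (SD, 3 libraries) at P7 and 10.01 ± 9.81 in MB (log2 fold change -3.59, SE 0.70, adjusted p = 9.20e-04). From P1 to P14, Slc8a2 and Slc8a3, which encode sodium-calcium exchangers, rose: Slc8a2 was at 43.2 ± 36.8 CPM (SD, 3 libraries) at P1 and 129 ± 12.3 at P14 (log2 fold change 1.58, SE 0.44, adjusted p = 0.0390) and Slc8a3 at 9.48 ± 4.16 CPM (SD, 3 libraries) at P1 and 19.3 ± 0.845 at P14 (log2 fold change 1.03, SE 0.29, adjusted p = 0.0395). Ryr3, another store release channel, fell: it was at 19.9 ± 1.24 CPM (SD, 3 libraries) at P1 and 6.75 ± 1.57 at P14 (log2 fold change -1.56, SE 0.45, adjusted p = 0.0436). Without P1 replicate 3 the log2 fold changes were 2.55, adjusted p = 1.99e-04 for Slc8a2, 1.45, adjusted p = 0.00217 for Slc8a3 and -1.57, adjusted p = 0.0444 for Ryr3. In that fit 11 genes of the list rose and 1 fell (background 9.54% and 7.96%), against 2 and 1 with all libraries (background 3.63% and 5.31%). Itpr1 stands both on this list and among the Purkinje cell markers, 7 of 8 of which were called lower in MB against P7.

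Several members are neighbours in the genome (mm9, positions of the deposited transcript table). On chromosome 2 lie, in order, Scn3a (65295175 to 65405549, minus strand), Scn2a (65458914 to 65605504, plus strand), Scn1a (66108841 to 66189252), Scn9a (66318137 to 66473009) and Scn7a (66511482 to 66622971), the last 3 on the minus strand. Scn3a and Scn2a, 53365 bases apart, moved in opposite directions from E15.5 to P14 (-2.79 and 1.38 on the log2 scale), and Scn9a and Scn7a, 38473 bases apart, did so too (-4.98 and 3.05). On chromosome 9, Scn2b and Scn4b, 8367 bases apart on the plus strand, were both called higher at P14 than at P7 (1.79 and 2.18), both of these calls being lost without single libraries, as given above. On chromosome 11, Cacng4 and Cacng5, 80114 bases apart, moved in opposite directions from E15.5 to P14 (-2.10 and 1.31). On chromosome 6, Cacna1c and Cacna2d4, 40295 bases apart, were both called higher at P14 than at E15.5 (2.46-fold and 2.65-fold in mean CPM). Scn2b and Scn4b were both called higher in that comparison too. Some neighbours thus moved in the same direction and others in opposite directions. Because the strand setting of the counting is not given in the sources used here, reads of genes that overlap a member on the other strand could not be told apart from its own.

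RefSeq start windows of 300 bases on GRCm38.p6 were matched for 30 of the 40 members, 41 windows in all. Their CpG count ran from 2 to 63 with a median of 9, beside 7 over all 32851 windows. CAGCTG, an E-box of the kind bound by proneural factors, was read on both strands, being its own reverse complement, and was in 13 windows of 12 members (Cacna1b, Cacna1c, Cacna1d, Cacna1s, Cacna2d3, Cacnb2, Cacnb4, Cacng2, Cacng3, Cacng8, Scn7a and Scn11a), against 16.3% of all windows. These 12 members include ones that rose, fell and were not called with age. TATAAA, searched on both strands, was in the windows of Cacna1d and Scn2a, against 13.6% of all windows. TGACGTCA, the cAMP response element, and the RE1 left part TTCAGCACC and the RE1 right part, which belong to the element bound by the repressor REST, were in none of the 41 windows (1.79%, 0.371% and 0.521% of all windows). These matches describe letters in the windows and no binding was measured.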

How the data were processed

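For each of the 15 libraries the authors deposited raw read counts per Ensembl gene (21889 genes, with summary lines in HTSeq format), per transcript and per start site model, none of them normalized. The submitters' processing notes name Trimmomatic, TopHat, StringTie, HTSeq and mm9; versions and the strand setting are not given in the sources used here. The gene lines hold 39.5% to 55.4% of the records, and the summary lines stayed out of library sizes and tests.

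The filter filterByExpr (10 counts, 15 in total) left 15259 genes, and TMM set the scaling. Testing used the quasi-likelihood F-test of edgeR 4.0.16 in R 4.3.3, with 1 mean per group over all 15 libraries (10 residual degrees of freedom), and adjusted over all genes tested with the Benjamini-Hochberg method. A gene was called at an adjusted p under 0.05. Exon lengths came from the deposited transcript table. The script was tested on simulated data. Alternatives were DESeq2 1.42.0, RLE scaling, no filter, the other tables, fewer libraries and shares with no division by length.

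Members and lists were chosen with earlier results of these data known. Values in every library are given for members with a mean of at least 2 CPM that were called among the 4 ages or in MB against P7. Values of some members are not reported here. Partner genes named are those called with the largest changes, where the mean was 5 CPM or more. Start windows are from RefSeq (GRCm38.p6).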

Additional observations from a re-analysis of the deposited data

How the results depend on the processing

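Of 1266 alternative values of 93 called log2 fold changes of members, 1144 kept their direction and their call and 122 kept their direction and lost the call. The counting sets hold 6 and 9 libraries, which differ in how the gene table counted some genes, and they leave few libraries per group. Within them 2 members rose from E15.5 to P1, 5 from E15.5 to P14 and 10 from P1 to P14, and 2 were higher in MB than at P7. Within them, of the anchors and accessory proteins of sodium channels, 3 rose and 7 fell from E15.5 to P14, and 1 presynaptic partner was higher in MB than at P7.

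DESeq2 called 8 members higher and 4 lower from P7 to P14 and 9 higher from P1 to P14. With the compared groups alone, 1 rose and 0 fell from P1 to P7 (edgeR, 3 lower at an unadjusted p under 0.05), 10 rose and 4 fell from P7 to P14, and 2 presynaptic partners were higher in MB. Counting from the transcript table, 0 members fell from P1 to P7 (edgeR, 4 at an unadjusted p under 0.05). In the start site table, an alternative chosen after seeing the data, 3 rose from E15.5 to P1, 3 from P7 to P14 and 10 from E15.5 to P14, 2 fell from P1 to P14 and 10 were lower in MB than at P14; of the presynaptic partners, 3 rose from E15.5 to P14, and 3 were higher and 5 lower in MB. DESeq2, RLE scaling, no filter and the compared groups alone each called 1 store or pump gene higher in MB. The cause of these differences was not tested.

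With 1 library left out at a time, members called higher and lower ranged from 4 to 7 and 9 to 12 (P1 against E15.5), 0 to 3 and 0 to 2 (P7 against P1), 0 to 3 and 0 to 2 (P14 against P7), 0 to 15 and 2 to 4 (P14 against P1), 12 to 17 and 10 to 11 (P14 against E15.5), 5 to 6 and 11 to 13 (MB against P7) and 4 to 5 and 17 to 18 (MB against P14), and from 25 to 31 among the 4 ages. For P14 against E15.5 and MB against P7, the anchor list gave 3 to 5 higher and 2 to 6 lower, and 1 to 2 and 9 to 9. The presynaptic list gave 4 to 5 and 5 to 6, and 3 to 5 and 8 to 9. The store and pump list gave 10 to 13 and 4 to 4, and 0 to 1 and 10 to 14.

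Replicate numbers did not pair the libraries: 7 of 30 same-numbered pairs correlated above 0.1 in their deviations from the group means (-0.53 to 0.462), and 4 of 15 libraries correlated best with their own number. With the replicate number as a block, 5 members rose from E15.5 to P1, 4 from P7 to P14 and 5 from P1 to P14, 28 differed among the 4 ages, and 3 presynaptic partners were higher in MB.

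Shares with no division by length moved in 19 of 24 cases: Scn8a 63.6% (P14) and 71.5% (MB), Scn2a 27.0% (P14), Scn3a 3.03% (P14) and 17.2% (MB). Cacna1a became 14.3%, 26.1% and 11.6%, Cacna1e 11.1%, 30.1% and 14.3%, Cacna2d1 41.4%, 71.0% and 98.0%, and Cacnb3 58.5%, 47.3% and 54.4% at E15.5, at P14 and in MB, and Cacna1b 28.9% (E15.5) and 13.2% (P14).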
